A study of Mus musculus with 15 samples.

Results

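The neuronal type cell adhesion genes are a set of 62 genes, of 10268 genes with a listed peak in the series, taken by a rule on gene symbols. The rule took every contactin, contactin-associated protein, numbered cadherin, protocadherin, neurexin, neuroligin, Ncam, Robo, Slit, Lrrtm, Dlg, alpha-, beta- or delta-catenin and semaphorin symbol, and left out Cdh5, the endothelial cadherin. It found 12 cadherins, 7 catenin-related genes, 10 protocadherins, 9 contactin and Cntnap genes, 5 neurexin, neuroligin and Lrrtm genes, 2 Dlg genes, Ncam2, 5 Slit and Robo genes and 11 semaphorins. Beta-catenin itself had no listed peak, and 2 of the catenin-related genes are not adhesion catenins: Ctnnbip1 encodes an inhibitor of beta-catenin binding to TCF factors, and Ctnnal1 encodes alpha-catulin.

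The assay was ATAC-seq, which uses a transposase to cut and tag accessible DNA, on pancreatic islets of male mice, 3 months old. Every mouse was homozygous for a floxed allele of Arid1a (Arid1aFl/Fl), which encodes a SWI/SNF remodeller subunit, and carried MIP-rtTA, a doxycycline-dependent activator under the mouse insulin promoter. TRE-Cre, the recombinase that this activator switches on, was present in KO-labelled mice and absent from controls. Mice drank doxycycline at 1 g/L for 2 weeks. PPx, a partial pancreatectomy that sets off regrowth of the remaining tissue, followed 1 week after withdrawal, and islets were taken 6 days later. There were 3 KO-labelled and 4 control libraries before PPx, and 4 KO-labelled and 4 control libraries after PPx. Because the insulin promoter drives the activator, the other cell types of the islet are expected to keep Arid1a, and each library held all the cells of a suspension of 40000 islet cells.

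The authors' deposited tables, 1 per comparison, hold for each peak of 601 bp the mean concentration of each group (log2 of normalised reads), the difference of the group means (log2 fold), a p-value, a false discovery rate (FDR) and the number of libraries in which the peak was called. All levels, folds, p-values and FDRs given here are those deposited values, and values of single libraries were not analysed here. Peaks with a deposited FDR of 0.05 or below were called, as gained where the fold was above 0 and as lost where it was below 0. Standard errors (SE) are those that a fold and its p imply when the p is read as a normal p. Within the Arid1a gene, the authors' deposited tables list a peak at exon 9 of 20 with a level of 5.49 in KO-labelled and 1.21 in control islets before PPx (fold 4.28, FDR 0.00187), and of 4.04 in KO-labelled and 0.40 in control islets after PPx (fold 3.64, FDR 0.00201). Accessibility there was higher in the libraries labelled KO. Which exon is floxed is not in the labels, and the peak does not check the deletion.

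Cadherins join cells through calcium-dependent contacts and are tied to actin by catenins, while protocadherins, contactins, neurexins with their neuroligin partners, and Ncam sort and hold the contacts of neurons. Slits are secreted ligands of Robo receptors, and semaphorins are ligands of plexins and neuropilins, both known for steering axons. Beta cells are excitable and use much of the same equipment: neurexin and neuroligin proteins have been tied to insulin secretion, N-cadherin to contact between beta cells, and Slit-Robo signalling to islet architecture.

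Of the 178 distinct regions near these genes, 68 were listed in all 4 tables (48 of the 62 genes had a peak in each) and 69 only in the tables that include the KO-labelled libraries taken after PPx. Those tables were longer for all genes, with 13111 and 12767 peaks, against 7826 and 8070 in the others. The same share over all regions was not computed, so the 69 are not a trait of adhesion genes as far as is known here. A median adhesion gene spanned 309 kb, against 24.8 kb for all genes of the table of genotype after PPx, and 45.2% of the adhesion genes, against 2.80% of all, were longer than 400 kb. They had 2.61 peaks per gene in that table, against 1.33 over all genes. Introns held 46.9% of their peaks, against 12.7% of all peaks, and promoters (within 3 kb of a start site in the deposited annotation) held 30.9%, against 61.4%. The same contrast held in the other tables, where promoter shares were 38.6%, 40.7% and 32.7% for adhesion genes, against 70%, 66.7% and 62.9% for all peaks (genotype before PPx, PPx in control islets and PPx in KO-labelled islets). These shares describe listed peaks and were not tested.

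**Figure D1:**
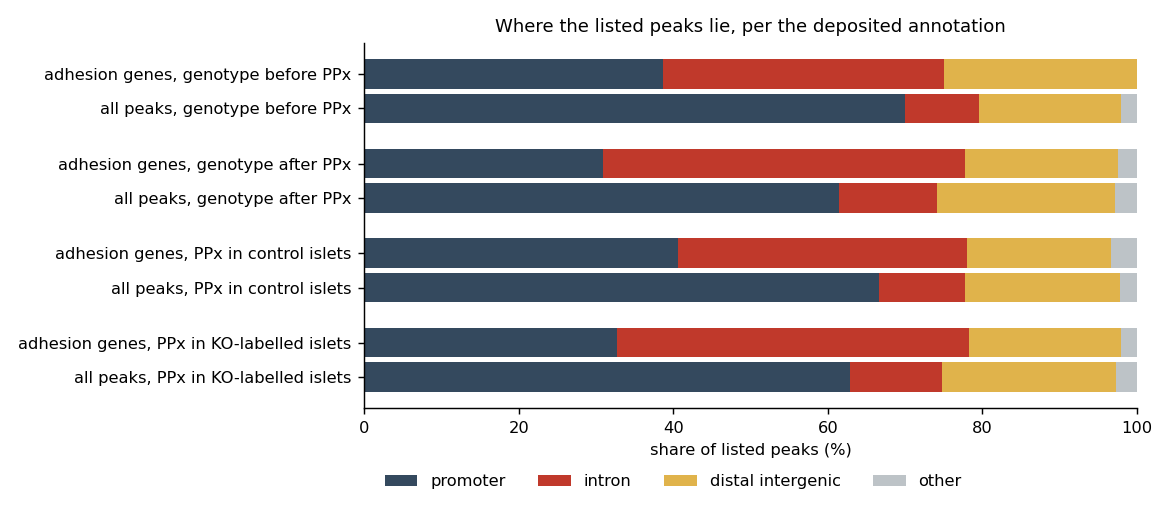
Share of listed peaks (%, horizontal axis) by annotation class for adhesion genes (upper bar of each pair) and all peaks (lower bar) in the 4 tables. The promoter segment of adhesion genes is between 30.9% and 40.7%, and that of all peaks between 61.4% and 70%.

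RefSeq promoter windows (GRCm38.p6, the primary sequence of the mm10 build of the files) were found for 49 of the 62 genes, and 34 windows of 30 genes overlapped a listed promoter peak, which is what under a peak means below. The 250 bases before 6 start sites are shown because they overlap, some only in part, promoter peaks that the results turn on: the 2 called promoters (Robo1 and Ctnnbip1), 2 of the strongest promoter peaks in control islets (Ctnna2 and Pcdh9), and the 2 promoters of Cntnap2 with a sequence in the table. Capitals mark GC boxes (GGGCGG or its reverse complement); the run ends at the base before the start site.
Robo1 (chr16:72662899-72663148, + strand): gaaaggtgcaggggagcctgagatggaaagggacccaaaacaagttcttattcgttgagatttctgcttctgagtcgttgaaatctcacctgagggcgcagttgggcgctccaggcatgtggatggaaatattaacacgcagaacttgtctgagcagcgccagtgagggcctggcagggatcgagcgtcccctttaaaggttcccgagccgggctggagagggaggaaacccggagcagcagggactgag
Ctnnbip1 (chr4:149517991-149518240, + strand): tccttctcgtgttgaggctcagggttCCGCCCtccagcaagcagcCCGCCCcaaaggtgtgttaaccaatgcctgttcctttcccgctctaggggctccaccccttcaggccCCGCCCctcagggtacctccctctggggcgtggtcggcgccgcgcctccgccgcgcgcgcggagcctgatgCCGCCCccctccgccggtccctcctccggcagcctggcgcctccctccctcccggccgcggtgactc
Ctnna2 (chr6:77979668-77979917, - strand): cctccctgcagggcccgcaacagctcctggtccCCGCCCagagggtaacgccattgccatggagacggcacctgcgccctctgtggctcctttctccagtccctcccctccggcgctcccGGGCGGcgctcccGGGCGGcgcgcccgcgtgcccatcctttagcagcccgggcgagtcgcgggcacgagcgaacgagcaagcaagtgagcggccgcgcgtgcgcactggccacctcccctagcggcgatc
Pcdh9 (chr14:93890680-93890929, - strand): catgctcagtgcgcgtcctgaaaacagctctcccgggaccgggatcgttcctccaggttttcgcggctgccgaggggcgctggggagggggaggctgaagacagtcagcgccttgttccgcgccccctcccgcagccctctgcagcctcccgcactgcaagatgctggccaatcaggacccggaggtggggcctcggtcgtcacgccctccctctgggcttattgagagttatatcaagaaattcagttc
Cntnap2, upstream (chr6:45059811-45060060, + strand): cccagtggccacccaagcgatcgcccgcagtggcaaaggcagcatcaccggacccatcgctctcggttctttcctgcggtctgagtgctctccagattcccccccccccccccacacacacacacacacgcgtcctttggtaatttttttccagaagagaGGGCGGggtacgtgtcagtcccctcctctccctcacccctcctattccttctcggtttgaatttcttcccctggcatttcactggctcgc
Cntnap2, inner (chr6:47244146-47244395, + strand): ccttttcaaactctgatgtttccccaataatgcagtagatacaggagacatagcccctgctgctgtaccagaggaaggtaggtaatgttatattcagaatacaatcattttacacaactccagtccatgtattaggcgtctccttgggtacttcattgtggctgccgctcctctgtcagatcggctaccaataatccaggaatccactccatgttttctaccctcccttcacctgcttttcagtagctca

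These promoters differed in composition. Ctnna2 had 73.2% GC, 30 CpG and 3 GC boxes, and Ctnnbip1 had 72.4% GC, 24 CpG and 4 GC boxes. Robo1 had 56% GC and 11 CpG, Pcdh9 had 63.6% GC and 18 CpG, and neither held any of the 7 motifs searched. The upstream promoter of Cntnap2 had 59.6% GC with 13 CpG, and the inner one 45.2% GC with 3 CpG. Over the 34 windows, median GC was 60.6% with 13.5 CpG, against 61.6% with 18 CpG in the 5834 windows under any listed promoter peak and 52.4% with 6 CpG in all 32851 windows. A GC box stood in 47.1% of the 34 windows, against 65.9% under any listed promoter peak and 32.7% of all. The left and right parts of the element bound by REST, a repressor of neuronal genes, were each found in 23.5% of the 34 windows (AGCACC and GGACAG), against 13.6% and 18.1% under any listed promoter peak, and 13.4% and 18.7% of all. TATAAA stood in 11.8%, against 4.99% and 12.4%. TGANTCA (AP-1), TGACGTCA (CRE) and CACGTG (E-box) were in 0 of the 34 windows; under any listed promoter peak they were in 3.19%, 3.10% and 8.60%, and over all windows in 6.75%, 1.55% and 6.02%. Both strands were searched in 250 bases, no motif of the set lies within another, and a match is a description of letters only.

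Before PPx no peak of an adhesion gene differed between KO-labelled and control islets at the deposited FDR. Of 88 peaks near 51 genes, 0 were gained and 0 were lost, against 0.0128% and 0% of all 7826 peaks. At an unadjusted p under 0.05, 1 was higher and 1 was lower, against 0.843% and 2.3% of all. The median fold was 0.045 for adhesion genes, against 0.00 for all peaks, and 48 of 88 folds were above 0 (54.5%), against 48.9% of all. All cells of the suspension enter each library, so fewer cells of a type and a less open region in each cell cannot be told apart, here and below.

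After PPx the adhesion gene peaks stood higher in KO-labelled than in control islets. Their median fold lay below that of all peaks when every listed peak was counted, but not with 1 peak per gene. Of 162 peaks near all 62 genes, 4 were gained (2.47%) and 0 were lost, against 9.89% gained and 0.0839% lost of all 13111 peaks. At an unadjusted p under 0.05, 31 were higher and 1 was lower, against 33% and 0.526% of all. Their median fold was 0.45, against 0.61 for all peaks, and 137 of 162 folds were above 0 (84.6%), against 90.3% of all. With 1 peak per adhesion gene the median was 0.645, and a like median over all genes is not given here. The 4 gained peaks belong to Pcdh9, Pcdh10, Cntn3 and Ctnnbip1. Split by annotation, 1 of 50 promoter peaks and 3 of 112 other peaks were gained, against 14.3% of all promoter peaks and 2.81% of all others. The deposited FDR was 1 at 4496 of the 4497 peaks with a mean concentration below 3.5 and at 38 of the 8614 others. The adhesion genes had 74 such peaks, and among their 88 peaks with an FDR under 1 the same 4 gained peaks stood against 15.1% of all such peaks. A plain Benjamini-Hochberg adjustment over all listed peaks left 1 gained adhesion peak, that of Pcdh9, against 4.13% of all peaks.

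PPx alone moved little in control islets. Of 91 peaks near 54 genes, 0 were gained and 0 were lost after PPx, against 0% and 0% of all 8070 peaks in the authors' test. With no adjustment, 0 had a higher and 0 a lower level at a p under 0.05, against 2.43% and 0.0991% of all. The lowest p was 0.055, so a plain Benjamini-Hochberg adjustment also gave 0. The median fold was 0.20, against 0.16 for all peaks.

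In KO-labelled islets the peaks stood higher after PPx than before it. Of 147 peaks near 61 genes, 3 were gained (2.04%) and 0 were lost, against 7.45% and 0% of all 12767 peaks. At an unadjusted p under 0.05, 35 were higher and 0 were lower, against 39.4% and 0.0235% of all. The median fold was 0.75, against 0.83 for all peaks, and 136 of 147 folds were above 0 (92.5%), against 97.1% of all. Robo1 and Cdh9 hold gained peaks described here; 1 of 48 promoter peaks and 2 of 99 other peaks were gained, against 9.73% and 3.57% of all. Among the 112 adhesion peaks with an FDR under 1 the 3 gained ones stood against 9.42% of all. With a plain Benjamini-Hochberg adjustment 0 adhesion peaks were gained, against 4.49% of all. This table and that of genotype after PPx share the 4 KO-labelled libraries taken after PPx, so their folds do not stand as separate evidence.

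The shift of adhesion folds above 0 was shared with the whole of each table that includes KO-labelled islets after PPx. When each fold was centred on the median of its table, 0 adhesion peaks were gained in either table, against 0.0153% of all peaks for genotype after PPx and 0% for PPx in KO-labelled islets. By the same measure 1 adhesion peak, in intron 7 of Sema3a, was lost after PPx in KO-labelled islets relative to control ones, against 0.381% of all peaks, and 0 were lost with PPx in KO-labelled islets, against 0% of all. The authors' scaling of the libraries is unknown here, and its part in the common shift was not tested.

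**Figure D2:**
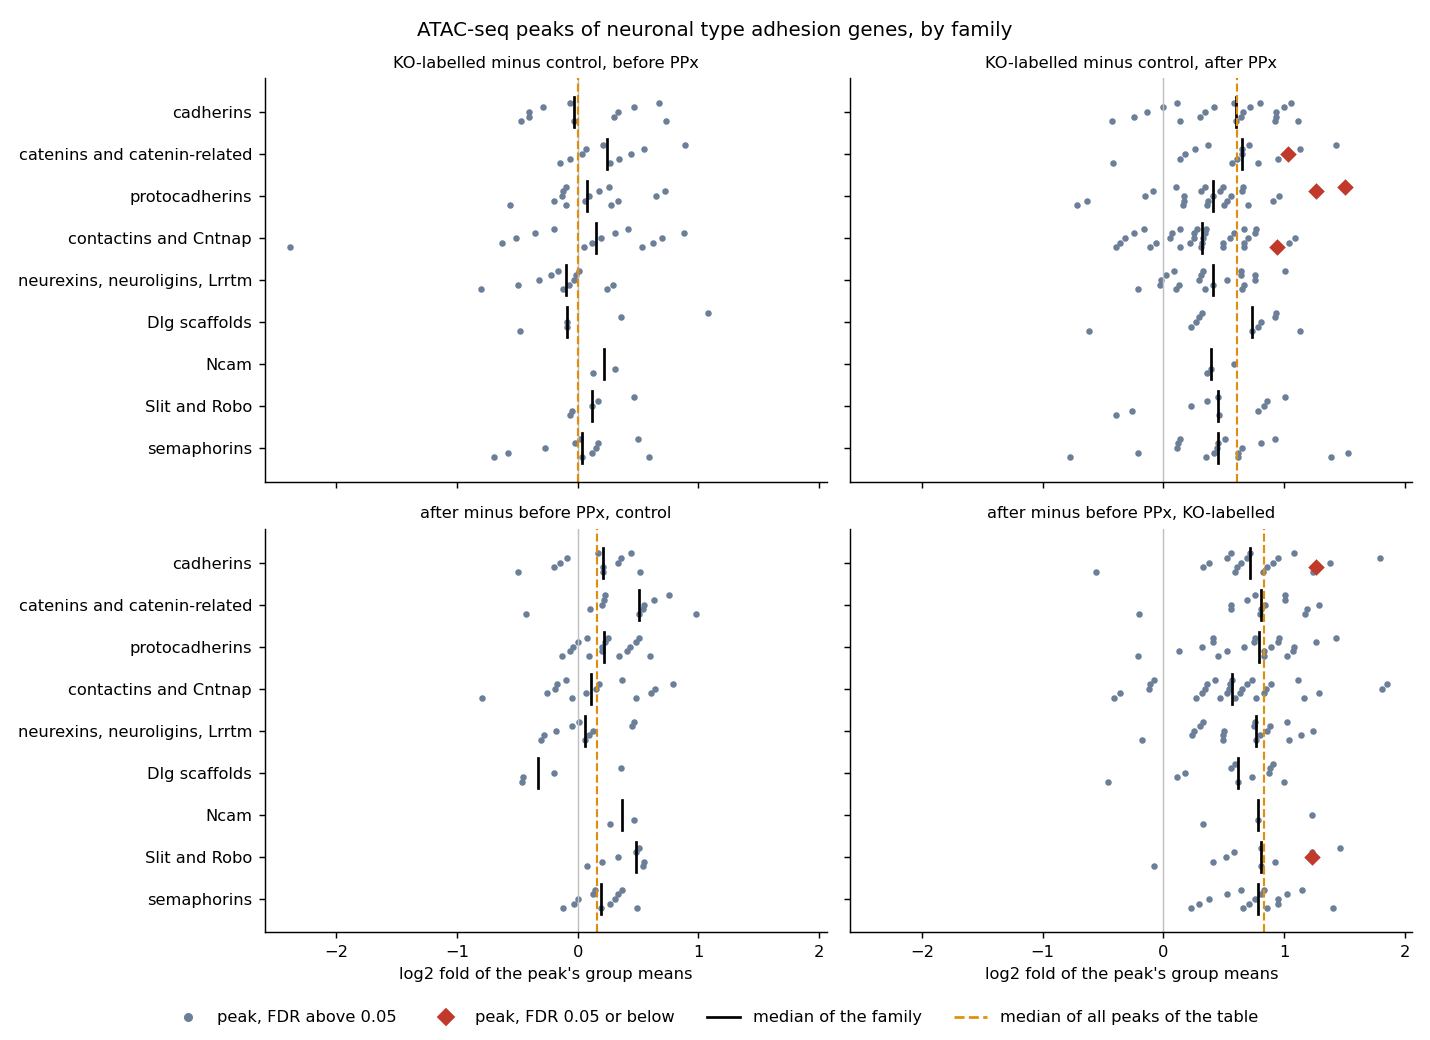
Log2 fold of listed peaks (horizontal axis) by gene family in the 4 comparisons, with peaks at an FDR of 0.05 or below as red diamonds, the median over all peaks of the family as a black bar and the median of all peaks of the table as a dashed line. After PPx and in KO-labelled islets most points lie right of 0, and the medians of all peaks are 0.61 and 0.83.

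Among the cadherins, which bind their like on neighbouring cells, 1 of 19 peaks was gained with PPx in KO-labelled islets and 0 of 21 were gained or lost by genotype after PPx. The gained peak lies in intron 1 of 10 of Cdh9, a type II cadherin (chr15:16784429-16785029). Its deposited level was 4.77 after and 3.51 before PPx, a fold of 1.26 ± 0.43 (implied SE) with an FDR of 0.045, with peak calls in 4 of 4 libraries after and 1 of 3 before. The same intron read 3.74 in KO-labelled and 4.20 in control islets before PPx (fold -0.47 ± 0.46) and 4.76 in KO-labelled and 4.18 in control islets after PPx (fold 0.58 ± 0.33). In control islets it was 4.22 after and 4.01 before PPx. The KO-labelled group before PPx was the lower one in both tables that hold it, and the genotype fold did not pass the authors' test in either state.

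Just above the threshold after PPx stood the promoters of Cdh10 (4.67 in KO-labelled, 3.67 in control islets, fold 1.00, FDR 0.052) and of Cdh2, which encodes N-cadherin (4.86 against 3.94, fold 0.92, FDR 0.0516). Before PPx the folds were -0.06 for Cdh10 and 0.33 for Cdh2. In control islets the Cdh2 promoter was 3.66 after and 4.15 before PPx, a fold of -0.49 that did not pass the test (p 0.171). Cdh12, a gene of 1150 kb, had 5 peaks by genotype after PPx with folds between -0.24 and 1.11, and the 3 promoter and upstream peaks of Cdh7 had folds of 0.66, 0.93 and -0.43. Before PPx the Cdh7 promoter was among the 5 highest adhesion peaks (3.97 in KO-labelled, 3.24 in control islets, fold 0.73, p 0.118). A distal peak of Cdh19, a cadherin known from glia, stood at 3.44 after and 1.65 before PPx in KO-labelled islets (fold 1.79 ± 0.67), with a p of 0.00743 and a deposited FDR of 1. Cdh9 also held the lowest adhesion fold of that table, -0.56, at a second peak (2.99 after, 3.56 before).

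Catenins link cadherin tails to actin, and the strongest peak of the set was a catenin promoter. Ctnna2, the neuronal alpha-catenin, had the highest adhesion peak in control islets before PPx: its promoter read 6.08 in KO-labelled and 5.81 in control islets, at percentile 96.9 of all peaks. After PPx it read 6.44 in KO-labelled and 5.79 in control islets (fold 0.65, FDR 0.135). The promoter of Ctnna3, the alpha-T catenin, also ranked among the 6 strongest, at 5.05 in KO-labelled and 5.01 in control islets before PPx, and read 5.57 and 4.96 in that order after PPx. With PPx in control islets a Ctnna3 peak in intron 13 was among the 5 lowest (2.39 after, 2.83 before, fold -0.43). Ctnna2 had 4 peaks with PPx in KO-labelled islets, with folds between -0.20 and 1.17. By genotype after PPx 14 of 15 folds of the family were above 0, against 90.3% of all peaks, with a median of 0.65, and 1 peak was gained.

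The gained peak is the promoter of Ctnnbip1 (chr4:149517799-149518399), which covers the GC-box-rich run shown above. After PPx its deposited level was 4.52 in KO-labelled and 3.48 in control islets, a fold of 1.03 ± 0.38 with an FDR of 0.0478 and calls in 4 of 4 and 2 of 4 libraries. With PPx in KO-labelled islets it stood just over the threshold, at 4.52 after and 3.32 before PPx (fold 1.19, FDR 0.0515). Before PPx it read 3.55 in KO-labelled and 3.49 in control islets, and in control islets 3.54 after and 3.30 before PPx. The promoter of Ctnna1, which encodes the alpha-E catenin of most epithelia, had a larger fold by genotype after PPx (3.94 in KO-labelled, 2.52 in control islets, fold 1.43 ± 0.47, p 0.00217) but carries an FDR of 1.

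Ctnnd2, the neuronal delta-catenin of the p120 family, had 5 peaks by genotype after PPx, all with folds above 0 (0.14 to 1.13). Its intron 11 peak read 4.29 in KO-labelled and 3.16 in control islets after PPx (FDR 0.0635), and 3.23 in KO-labelled and 2.34 in control islets before PPx (fold 0.89). In control islets its intron 11 and intron 1 peaks had the highest and the fourth highest adhesion folds with PPx: 3.14 after and 2.16 before PPx for intron 11 (fold 0.98, p 0.11), and 4.05 after and 3.29 before for intron 1 (fold 0.76, p 0.06). None of these passed the authors' test. The catenin family also had the highest median with PPx in control islets among families with more than 10 peaks, 0.51 over 11 peaks.

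Protocadherins, the largest cadherin subfamily and mostly neuronal, held 2 of the 4 peaks gained by genotype after PPx. These were 2 of 25 peaks of the family, where 9.89% of all peaks were gained. A peak in intron 3 of 3 of Pcdh9 (chr14:93176182-93176782) had the smallest p of the set. In the authors' deposited table it had 4.37 in KO-labelled and 2.87 in control islets, a fold of 1.5 ± 0.40 with a p of 0.000164 and an FDR of 0.0212, and its calls came from 4 of 4 KO-labelled and 0 of 4 control libraries. Before PPx it read 3.34 in KO-labelled and 3.07 in control islets. In KO-labelled islets it read 4.37 after and 3.12 before PPx (fold 1.26, FDR 0.0563), and it was not listed for PPx in control islets.

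The peaks of Pcdh9 intron 3 did not all lean the same way. Of the 8 Pcdh9 peaks listed by genotype after PPx, 2 in the same intron were lower in KO-labelled islets: 3.14 against 3.86 in control islets (fold -0.72 ± 0.46, FDR 0.194) and 4.07 against 4.69 (fold -0.63 ± 0.36, FDR 0.151). The second of them was also lower in KO-labelled islets before PPx (4.19 against 4.75, fold -0.56). Neither passed the test. The Pcdh9 promoter, among the 6 strongest adhesion peaks, read 5.07 in KO-labelled and 5.20 in control islets before PPx, and 5.56 in KO-labelled and 5.03 in control islets after PPx (FDR 0.193).

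The other gained protocadherin peak lies 121 kb outside Pcdh10, a protocadherin gene of developing neurons (chr3:45555627-45556227). Its deposited level after PPx was 4.41 in KO-labelled and 3.14 in control islets (fold 1.26 ± 0.42, FDR 0.0392), although 2 of 4 KO-labelled and 1 of 4 control libraries had a peak call. Before PPx it already stood at 4.22 in KO-labelled and 3.5 in control islets (fold 0.72 ± 0.48, p 0.133), and with PPx it changed little in KO-labelled islets (4.41 after, 3.99 before) and in control islets (3.19 after, 3.32 before). KO-labelled islets thus stood above control islets in both states there, before PPx without passing the test. The promoters of Pcdh8 (4.71 in KO-labelled, 3.80 in control islets, FDR 0.0549) and of Pcdh17 with PPx in KO-labelled islets (5.08 after, 4.00 before, FDR 0.0564) fell just outside the threshold. Pcdh15, whose protein pairs with that of Cdh23 in the tip links of inner ear hair cells, had 5 peaks by genotype after PPx between -0.15 and 0.56, and its intron 3 peak had a fold of -0.21 with PPx in KO-labelled islets.

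**Figure D3:**
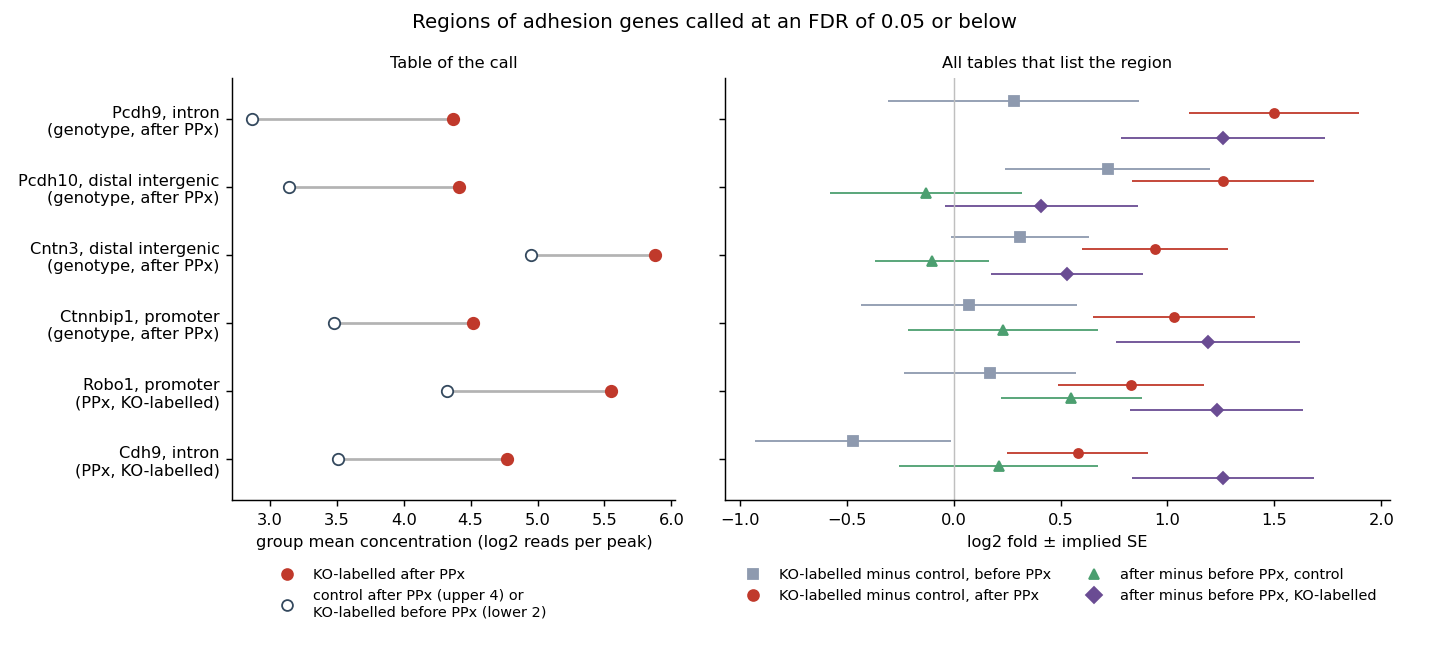
Left, group mean concentration (log2 reads) of 6 called regions in the table of the call, with KO-labelled islets after PPx filled and the group they were compared with open. Right, log2 fold with its implied SE for each region in every table that lists it. The folds before PPx (squares) run from -0.47 at Cdh9 to 0.72 at Pcdh10, and those after PPx (circles) from 0.58 at Cdh9 to 1.5 at Pcdh9.

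Contactins are membrane-anchored immunoglobulin-type proteins of axons, and Cntnap proteins are contactin-associated proteins of the neurexin superfamily. They had the most peaks, 33 by genotype after PPx, with 1 gained and the lowest family median, 0.32. The gained peak is annotated as distal to Cntn3 (chr6:102564241-102564841), but falls within the RefSeq span of the gene. It lies 99.9 kb from the nearest Cntn3 start site that has a promoter window. Distances to start sites without a window were not measured, so a nearer start is possible. Its deposited level was 5.88 in KO-labelled and 4.95 in control islets after PPx (fold 0.94 ± 0.34, FDR 0.0464), with calls in 4 of 4 libraries of each group. Before PPx it was the second strongest adhesion peak, at 5.64 in KO-labelled and 5.33 in control islets. PPx gave a fold of 0.53 in KO-labelled islets (5.94 after, 5.41 before) and of -0.10 in control islets (5.00 after, 5.10 before).

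Cntnap2, whose protein gathers potassium channels on axons, had 11 peaks over 2241 kb by genotype after PPx, of which 10 had folds above 0 (median 0.49). Its upstream promoter read 4.31 in KO-labelled and 4.06 in control islets and its inner promoter 4.24 and 3.75 in that order (FDR 0.607 and 0.293). Its peak in intron 11 read 3.69 in KO-labelled and 2.6 in control islets (fold 1.09, p 0.0418, FDR 1). In control islets the upstream promoter had a fold of 0.64 with PPx (4.16 after, 3.52 before, p 0.0886). With PPx in KO-labelled islets a peak in intron 1 read 3.41 after and 1.60 before PPx (fold 1.81 ± 0.71, p 0.0111, FDR 1), and a peak in intron 2 of Cntn4 read 3.11 after and 1.26 before (fold 1.85 ± 0.76, p 0.0144, FDR 1). A distal Cntnap2 peak had the lowest adhesion fold with PPx in control islets, at 0.04 after and 0.82 before (fold -0.79 ± 1.03), and -0.36 with PPx in KO-labelled islets. The intron 1 peak of Cntnap2 and the intron 2 peak of Cntn4 were each called in 2 of 4 libraries after and 0 of 3 before PPx. Cntn4 had 7 peaks by genotype after PPx, with folds between -0.16 and 1.04.

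A distal peak of Cntnap5b, 31.7 kb outside the gene, had the largest genotype difference of the set before PPx and in the opposite direction to most later folds. It read 1.33 in KO-labelled and 3.71 in control islets in the authors' deposited table (fold -2.38 ± 0.69, p 0.000583, FDR 1), called in 0 of 3 and 2 of 4 libraries. A second Cntnap5b peak, in intron 1, was also among the 5 lowest (3.34 against 3.97 in control islets, fold -0.63, called in 0 of 3 and 3 of 4 libraries). After PPx the folds at these peaks were -0.36 (2.98 in KO-labelled, 3.33 in control islets) and -0.06. Cntn5, with 4 peaks by genotype after PPx, was uneven: its intron 2 peak had folds of 0.88 by genotype before PPx, -0.32 after PPx, 0.79 with PPx in control islets and -0.41 with PPx in KO-labelled islets, none past the test. Cntnap3 and Cntn1 were each listed in 2 tables, with folds of 0.14 at both by genotype after PPx.

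Neurexins are presynaptic receptors, neuroligins and Lrrtm proteins their partners across the synapse. Before PPx 4 of their 16 peaks had folds above 0 (25%), against 48.9% of all peaks and 36.1% of all peaks outside promoters, where most of the 16 lie. Their median was -0.095, against 0.00 for all peaks and -0.12 for all outside promoters. None passed the test. After PPx 23 of 27 were above 0 with a median of 0.41, against 90.3% of all peaks above 0. With PPx in KO-labelled islets 25 of 26 were, against 97.1% of all.

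Nrxn3, a gene of 1612 kb, had 7 peaks by genotype after PPx with a median fold of 0.09, and its promoter read 5.86 in KO-labelled and 5.10 in control islets (fold 0.76, FDR 0.0849). Nlgn1 had 4 peaks in that table (0.02 to 0.76). They are annotated as distal, yet all 4 fall within the RefSeq span of the gene and the first lies 0.034 kb from a RefSeq start site. Before PPx 1 of its peaks was among the 5 lowest (3.35 in KO-labelled, 4.14 in control islets, fold -0.80, p 0.0714). Nlgn3 had 1 peak, which read 4.84 in KO-labelled and 3.82 in control islets after PPx (fold 1.01, FDR 0.052) and 3.91 and 3.92 in that order before PPx. Lrrtm4 had 8 peaks by genotype after PPx, none at a promoter, all above 0 and all small (0.10 to 0.64).

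Dlg proteins are scaffolds under synaptic membranes. Dlg2, which encodes PSD-93, had 10 peaks over 1973 kb by genotype after PPx, 9 of them above 0. The highest, in intron 1, read 3.93 in KO-labelled and 2.80 in control islets (fold 1.13, p 0.0127, FDR 1), and the lowest, also in intron 1, read 2.42 and 3.04 in that order (fold -0.62, p 0.333). Its intron 2 peak was the highest adhesion fold by genotype before PPx, at 4.14 in KO-labelled and 3.06 in control islets (fold 1.08 ± 0.49, p 0.0287, FDR 1), but read 3.48 and 3.24 in that order after PPx. With PPx that peak stood at 3.45 after and 3.91 before in KO-labelled islets. In control islets 2 other Dlg2 peaks had folds of -0.46 and -0.45 with PPx. Dlg3, which encodes SAP102, had 1 promoter peak, at 4.01 in KO-labelled and 3.08 in control islets after PPx (fold 0.93, FDR 0.102).

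Ncam2, an adhesion protein of the immunoglobulin superfamily known from olfactory axons, had 3 peaks by genotype after PPx with folds of 0.36 to 0.58 and none called. Its promoter read 4.91 in KO-labelled and 4.6 in control islets before PPx, and 4.99 in KO-labelled and 4.63 in control islets after PPx.

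Among the Slit ligands and Robo receptors, the Robo1 promoter (chr16:72662959-72663559) was gained with PPx in KO-labelled islets. In the authors' deposited table it had 5.55 after and 4.32 before PPx, a fold of 1.23 ± 0.41 with an FDR of 0.0426, the smallest of the set in that comparison, with calls in 4 of 4 and 3 of 3 libraries. With PPx in control islets it read 4.81 after and 4.26 before (fold 0.55 ± 0.33, p 0.0956). Between genotypes it read 5.51 in KO-labelled and 4.68 in control islets after PPx (fold 0.83, FDR 0.0627), and 4.51 and 4.34 in that order before PPx. The fold was above 0 in all 4 comparisons. The genotype fold after PPx minus that before PPx was 0.66 ± 0.53 (adjusted p 0.467 by the z test described below), which did not pass the test. Robo1 had 4 peaks by genotype after PPx, with folds between -0.39 and 0.83. All 7 Slit and Robo peaks had folds above 0 with PPx in control islets (0.08 to 0.55, median 0.48), against 72.8% of all peaks, none past the test.

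Robo2 had 2 peaks by genotype after PPx: the promoter at 4.46 in KO-labelled and 3.60 in control islets (fold 0.86, FDR 0.0832), and an intron 2 peak at 3.63 and 2.63 in that order (fold 1.01, p 0.0401, FDR 1). That intron peak had the fifth highest fold with PPx in KO-labelled islets (3.63 after, 2.17 before, fold 1.46). Robo3, a divergent family member, read 4.28 in KO-labelled and 3.82 in control islets after PPx. The ligand genes Slit2 and Slit3 had no called peak; the Slit2 promoter read 4.76 in KO-labelled and 4.40 in control islets after PPx, and the distal Slit3 peak 4.21 and 3.43 (fold 0.78, FDR 0.119).

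Semaphorins are secreted (class 3) or membrane-bound (classes 4 to 6) guidance cues. By genotype after PPx 0 of their 17 peaks were called, and 15 had folds above 0, against 90.3% of all peaks. The highest fold of all adhesion peaks in that table was a distal Sema5a peak at 4.78 in KO-labelled and 3.25 in control islets (fold 1.53 ± 0.62, FDR 0.0617), whose implied SE is wide. A Sema6d promoter read 3.60 and 2.21 in that order (fold 1.39 ± 0.52, p 0.00808, FDR 1), and the Sema3c promoter 5.29 and 4.38 (fold 0.92, FDR 0.0532).

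Sema3a, the best known repellent of axons, went the other way at intron 7 of 17. This peak was called in 4 of 4 libraries of each group after PPx. In the authors' deposited table it read 3.96 in KO-labelled and 4.73 in control islets after PPx (fold -0.77 ± 0.35, p 0.0277, FDR 0.0828), and 3.94 and 4.63 in that order before PPx (fold -0.69 ± 0.38, p 0.0679). It is the 1 adhesion peak lower at an unadjusted p under 0.05 after PPx. Relative to the median of its table its fold was -1.38, with a Benjamini-Hochberg adjusted p of 0.0308. Its folds with PPx were 0.23 in KO-labelled islets (3.93 after, 3.71 before) and 0.33 in control islets (4.78 after, 4.45 before). The other 2 Sema3a peaks had folds of 0.51 and 0.62 by genotype after PPx. Sema3d, among the 6 strongest at its promoter, read 4.94 in KO-labelled and 4.90 in control islets before PPx, and 4.99 in KO-labelled and 4.64 in control islets after PPx.

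Whether the genotype difference changed with PPx was tested at 82 adhesion peaks that overlapped between the tables of genotype after and before PPx by at least 1 bp, as the difference of the folds against their implied SEs (two-sided z test). After adjustment over all 7496 matched peaks, 0 adhesion peaks passed, against 0% of all; the lowest adjusted p was 0.304, and 3 adhesion peaks had an unadjusted p under 0.05, all higher after PPx, against 14.4% of all. They include the distal Cntnap5b peak (difference 2.02 ± 0.84) and intron 1 of Dlg2 (1.40 ± 0.71). The median difference was 0.57 for adhesion peaks, against 0.64 for all. The fold was higher after PPx at 67 of 82 peaks; it was above 0 in both states at 42, above 0 after and below 0 before at 30, below 0 in both at 8, and below 0 after and above 0 before at 2. The peaks that were lower in KO-labelled islets in both states include the intron 7 peak of Sema3a, the distal and intron 1 peaks of Cntnap5b and 1 of the matched intron 3 peaks of Pcdh9 (folds -0.63 after and -0.56 before PPx).

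**Figure D4:**
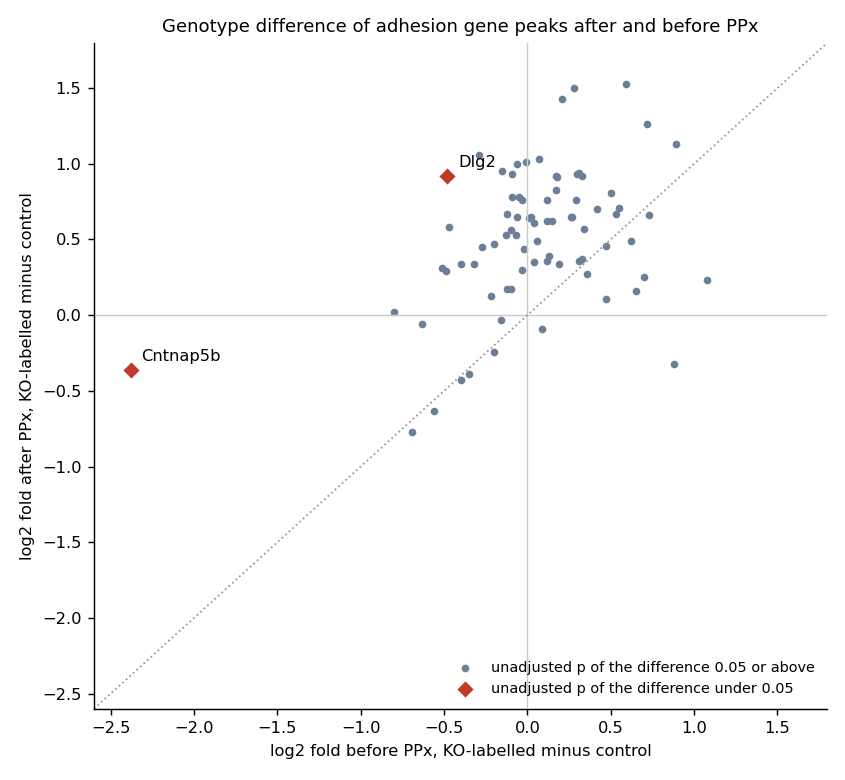
Genotype fold after PPx (vertical axis) against that before PPx (horizontal axis), both log2 and KO-labelled minus control, for 78 of the matched adhesion peaks; the dotted line marks equal folds. Of these, 63 lie above the line, and diamonds mark 2 with an unadjusted p under 0.05 for the difference.

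The folds were set beside those of all peaks of like mean concentration. By genotype after PPx, adhesion peaks with a mean concentration of 2 to 3 had a median fold of 0.14 over 19 peaks, against 0.53 for all 1139 peaks of that range. Those of 3 to 4 had 0.38 over 92 peaks, against 0.51 for all 6230. Those of 4 to 5 had 0.56 over 41 peaks, against 0.67 for all 3658, and those of 5 to 6 had 0.70 over 8 peaks, against 0.77 for all 1427. With PPx in KO-labelled islets the same ranges gave 0.48, 0.77, 0.72 and 0.825, against 0.86, 0.83, 0.86 and 0.83. Promoter peaks of adhesion genes had a median fold of 0.565 by genotype after PPx, against 0.71 for all promoter peaks, and their other peaks 0.34, against 0.38 for all others. In genes over 400 kb, peaks outside promoters had a median of 0.335 in adhesion genes and 0.31 in other genes. Before PPx the same classes gave -0.04 in adhesion genes and -0.21 in other genes. With PPx the order turned, at 0.09 in adhesion genes and 0.255 in other genes of control islets. In KO-labelled islets it was 0.69 and 0.74. Peak calls moved the same way: by genotype after PPx 108 of 162 adhesion peaks (66.7%) were called in more KO-labelled than control libraries and 10 in fewer, against 67.4% and 4.06% of all peaks, and 38 (23.5%) were called in at least 2 KO-labelled and 0 control libraries, against 28.4% of all.

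**Figure D5:**
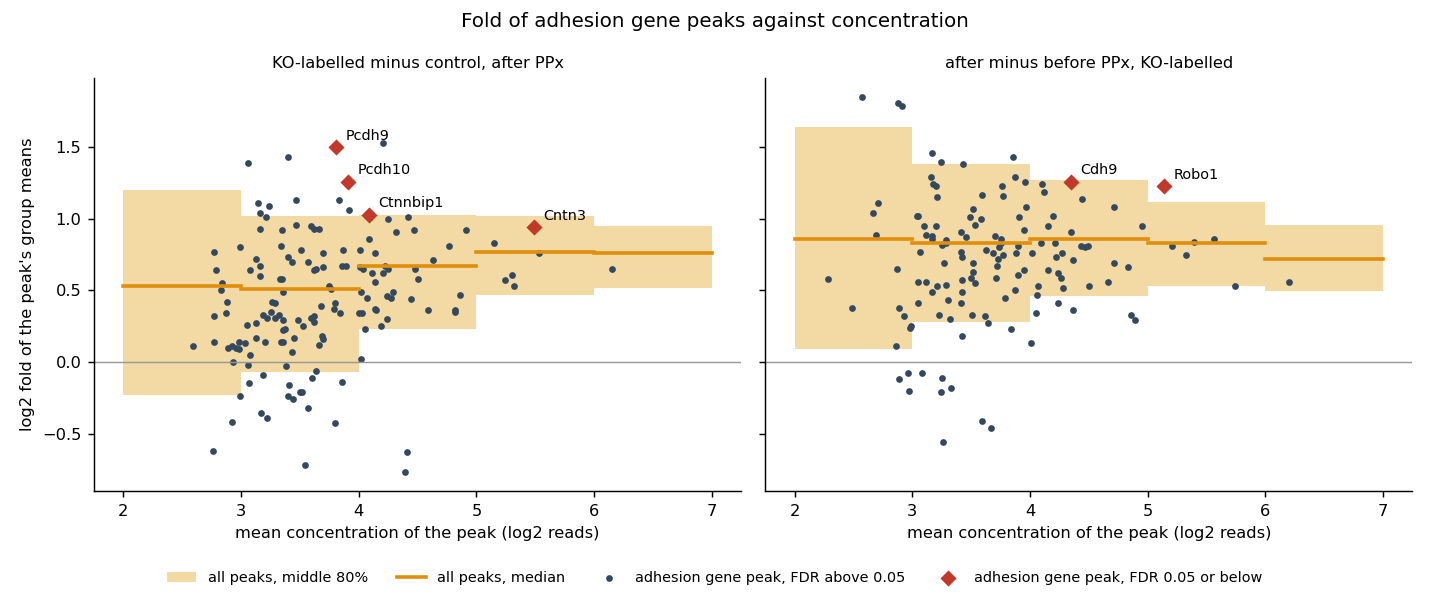
Log2 fold (vertical axis) against mean concentration (log2 reads, horizontal axis) of adhesion gene peaks, for genotype after PPx (left) and PPx in KO-labelled islets (right); bands and bars give the middle 80% and the median of all peaks per unit of concentration. Of the 6 called peaks drawn (red), those of Pcdh9, Pcdh10 and Robo1 lie above the band, and most other adhesion peaks lie within it.

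Other genes of these pathways, 113 that the rule does not take, were read in the same tables. By genotype after PPx they had 130 peaks near 61 genes with a median fold of 0.47, of which 7 were gained and 0 lost, against a median of 0.61 and 9.89% gained for all peaks. These were the promoters of Slitrk5, Nectin3, Nectin2, Cask, Nrcam, Dsg2 and Vcl. Slitrk5 is a synaptic adhesion protein (4.64 in KO-labelled, 3.46 in control islets, fold 1.18, FDR 0.032), and vinculin, encoded by Vcl, joins alpha-catenin to actin (5.98 in KO-labelled, 4.96 in control islets, fold 1.01, FDR 0.0394). With PPx in KO-labelled islets they had 126 peaks near 59 genes with a median of 0.735, against 0.83 for all peaks. Of these, 8 were gained and 0 lost, against 7.45% and 0% of all, among them the promoters of the semaphorin receptor gene Plxnd1 (3.94 after, 2.18 before, fold 1.76, FDR 0.0357) and of Tenm4 (4.51 after, 2.78 before, fold 1.73, FDR 0.0263). Before PPx and with PPx in control islets 0 of 79 and 0 of 89 of their peaks were called.

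Markers of other cells were read beside these results. Beta cell markers had peaks at 4 or 5 of 9 genes in each table. The Ins1 and Nkx6-1 promoters, 2 of 11 beta marker peaks, were gained by genotype after PPx, against 9.89% of all peaks. The summed level of beta markers was 7.76 in KO-labelled and 7.00 in control islets (log2). Their median fold was 0.66 over 11 peaks, against 0.61 for all peaks, and 10 folds were above 0. The intron peak of Slc30a8 had a fold of -0.15. Before PPx the 4 beta marker folds ran from -1.45 at Slc30a8 to 0.95 at Ins1. With PPx in KO-labelled islets 1 of 11 beta marker peaks was gained, against 7.45% of all peaks. Of 10 Schwann and neuronal markers only Snap25 and Elavl4, which endocrine cells also express, had peaks; among the others, Sox10, Ngfr, Foxd3, Rbfox3, Tubb3 and Elavl3 had none in any table. The summed level of these 2 genes was 7.03 in KO-labelled and 6.29 in control islets after PPx. There 1 of 6 peaks was gained, near Elavl4, against 9.89% of all peaks. In KO-labelled islets the sum was 6.91 after and 6.16 before PPx. A distal peak of the delta cell marker Sst was gained by genotype after PPx, as were 9.89% of all peaks (5.32 in KO-labelled, 4.20 in control islets, fold 1.12, FDR 0.0294). Alpha cell markers summed to 5.87 in KO-labelled and 5.54 in control islets after PPx, ductal ones to 4.25 and 3.98 in that order, and stellate and fibroblast ones to 5.18 and 4.68. Acinar markers had no listed peak, endothelial ones summed to 5.96 in KO-labelled and 6.01 in control islets after PPx, and leukocyte ones to 4.77 and 4.16 in that order. With PPx in KO-labelled islets 1 of 2 leukocyte marker peaks was gained, against 7.45% of all peaks, with a summed level of 4.79 after and 3.78 before PPx. The median fold of all peaks was 0.83 in that comparison and 0.61 by genotype after PPx, so a rise was common to most peaks. The part of cell makeup in the adhesion results was not tested. Levels of a group differ between tables, by a median of 0.23 for KO-labelled and 0.18 for control islets before PPx, so levels were compared within a table only.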

How the data were processed

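Per the labels' protocols, each library came from 40000 islet cells and was read from 1 end over 75 bp. cutadapt, BWA, MACS, DiffBind and ChIPseeker on mm10 are named in the submitters' processing notes, without versions. The authors deposited group mean concentrations and folds as log2 values, with a p-value and an FDR per peak; depth, the test and the scaling between libraries are not given in the sources used here. The deposited fold is control minus KO-labelled and before minus after; it was turned. Repeated rows (1197 and 5281 in the genotype tables before and after PPx, 1337 and 4588 in the PPx tables of control and KO-labelled islets) and 1 blank row were removed.

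An implied SE is the size of the fold over the two-sided normal quantile of its p. Where the fold was under 0.1 or the p at least 0.95, the median of the peak's bin (1 of 40 bins of concentration) was taken. The difference of genotype folds was tested by a z test with Benjamini-Hochberg adjustment over all matched peaks, after a check on simulated data (pandas 2.3.3, numpy 2.4.6, scipy 1.17.1). The simulated p-values were normal by construction, so that check could not show whether the deposited p is a normal p. Named genes are every called peak, the 5 highest and 5 lowest folds per table, the 6 strongest peaks of control islets before PPx, genes with 4 or more peaks in a table, and each member of the small families; peaks with an FDR just over 0.05 and others named were picked after their values were seen. Promoter sequences are those of RefSeq, GRCm38.p6. The members, lists and motifs were chosen with earlier results of these data known. The labels count 1 mouse per library, so the deposited p-values measure the spread between mice as far as the unnamed test of the authors does. Some results that the naming rule covers are not reported here or drawn.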

Additional observations from a re-analysis of the deposited data

How the results depend on the processing

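No replicate could be left out and no paired analysis was possible because the tables hold group means and the labels share no replicate number between groups. Gained peaks by genotype after PPx, 4 as reported, were 0 at an FDR of 0.01, 19 at 0.1, 1 with a plain Benjamini-Hochberg adjustment, 0 with centred folds, 7 with repeated rows kept and 1 among promoters; lost ones were 1 at an FDR of 0.1 and 1 with centred folds (Sema3a in both). Gained peaks with PPx in KO-labelled islets, 3 as reported, were 0 at 0.01, 25 at 0.1, 0 with the plain adjustment, 0 with centred folds, 9 with repeated rows kept and 1 among promoters. Shares over all peaks at an FDR of 0.01 or 0.1 and with repeated rows kept were not computed, so these counts have no background beside them. With repeated rows kept, each repeat of a row counts as a further peak. At an FDR of 0.05 both shares were below those of all peaks (2.47% against 9.89%, and 2.04% against 7.45%). The plain adjustment gave 0.0508 for Robo1, 0.0531 for Cdh9, 0.0544 for Pcdh10, 0.0647 for Cntn3 and 0.0668 for Ctnnbip1. Median folds changed sign with centring, to -0.16 by genotype after PPx and -0.08 with PPx in KO-labelled islets. That of PPx in control islets became 0.04, against 0.20 as reported. That of genotype before PPx was -0.03 outside promoters. With 1 peak per gene the median by genotype after PPx was 0.645, against 0.45 as reported. With a t quantile of 6 degrees of freedom for the implied SE, 1 adhesion peak passed the test of the genotype difference after against before PPx (Cntnap5b, adjusted p 0.0242), with 308 of all peaks. That quantile makes the SEs smaller, while the difference was still read against a normal distribution. The mix lowers the p, so these passes cannot be read as a change of the genotype difference. Of the other values of counts and medians, 78 kept their direction and side of the threshold or, with no test, stayed within set limits. The centred median of 0.04 and the median with 1 peak per gene are among these 78. Of the alternatives for single called peaks, 8 did and 20 no longer passed. The depth of the libraries is not known here, so what it limits cannot be given.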

Other observations

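A distal peak near Cntnap2 was called in nearly all libraries although its concentration was among the lowest listed: in the authors' deposited table of genotype after PPx it read 0.66 in KO-labelled and 1.05 in control islets, called in 4 of 4 and 4 of 4 libraries, and before PPx 0.46 in KO-labelled and 0.81 in control islets, called in 3 of 3 and 4 of 4. The deposited annotation and RefSeq differ at some adhesion genes: besides the Nlgn1 and Cntn3 peaks, a Cdh9 peak listed as distal lies 0.181 kb from a RefSeq start site, and 2 peaks listed as distal to Dlg2 fall within its RefSeq span.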
